A study of Mus musculus with 12 samples.

Results

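Broad H3K4me3 domains of a Kmt2d wild-type (WT) mouse melanoma line that had no broad counterpart in a Kmt2d mutant line numbered 747, out of 2207 broad WT domains and 23154 WT H3K4me3 peaks. A domain was broad when its peak was at least 4000 bp wide, and a WT domain belonged to the set when no mutant H3K4me3 peak of at least 4000 bp overlapped it. The set was therefore selected on the measured peak widths of both lines. Of the 747 domains, 27 overlapped no mutant H3K4me3 peak and are called lost. Another 581 overlapped exactly 1 narrower mutant peak and are called narrowed, and 139 overlapped several narrower mutant peaks and are called fragmented. The other 1460 broad WT domains overlapped a broad mutant peak and are called kept.

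Histone marks were mapped by chromatin immunoprecipitation and sequencing (ChIP-seq) in cultured cells of 2 lines, 971 (Kmt2d WT) and 493 (Kmt2d mutant). The 4 marks were H3K4me3, H3K4me1, H3K27ac and H3K27me3. Each line gave 1 library per mark, so no difference between the lines has a replicate check and none is given a p value. The labels do not say how the mutation arose, whether a line is 1 clone, or whether the lines share a parent, so genotype and any other difference between these lines cannot be told apart. Of 25 melanocyte lineage and pigment genes, 12 had a gene start under a WT H3K4me3 peak and 15 under a mutant peak. The counts were 2 and 4 of 12 for keratinocyte markers, 3 and 3 of 10 for endothelial markers, and 1 and 1 of 10 for immune cell markers. They were 22 and 19 of 28 for collagen, matrix and fibroblast genes. For genes of the undifferentiated, invasive and neural crest state they were 28 and 28 of 30.

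H3K4me3 marks active promoters, where it usually forms a short block on either side of the transcription start. At a minority of genes the block runs far into the gene body, and such broad domains are known for cell identity genes and tumour suppressors, and for steady transcription. KMT2D belongs to a family of complexes that methylate H3K4 and is best known for placing H3K4me1 at enhancers, where H3K27ac marks the active ones and H3K27me3 marks Polycomb repression. In many cells H3K4me1 also flanks the H3K4me3 block.

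The promoters of 6 domains show the range of base composition in the set. Each is 300 bases long, from 250 bases before the gene start to 50 bases from it, taken from RefSeq (GRCm38.p6, the assembly of mm10) and printed 5′ to 3′ on the gene's strand with every CpG in capitals. Nkain2, Ston1 and Pcolce are from lost domains, Tns2 and Itga3 from narrowed ones, and Irs2 from a fragmented one. The domains of Nkain2 and Ston1 lay wholly inside those genes, so the starts printed for them are internal ones.
Nkain2: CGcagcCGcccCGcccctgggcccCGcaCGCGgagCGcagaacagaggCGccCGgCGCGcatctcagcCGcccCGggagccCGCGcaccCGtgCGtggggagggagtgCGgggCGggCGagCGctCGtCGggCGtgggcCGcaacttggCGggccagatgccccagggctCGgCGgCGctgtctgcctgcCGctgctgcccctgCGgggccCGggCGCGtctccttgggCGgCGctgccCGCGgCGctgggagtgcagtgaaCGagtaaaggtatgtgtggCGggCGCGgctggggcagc
Ston1: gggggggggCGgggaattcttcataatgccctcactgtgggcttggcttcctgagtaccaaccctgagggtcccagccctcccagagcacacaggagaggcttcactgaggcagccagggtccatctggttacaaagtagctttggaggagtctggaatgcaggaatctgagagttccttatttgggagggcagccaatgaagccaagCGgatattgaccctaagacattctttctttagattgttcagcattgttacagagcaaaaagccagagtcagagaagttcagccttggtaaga
Pcolce: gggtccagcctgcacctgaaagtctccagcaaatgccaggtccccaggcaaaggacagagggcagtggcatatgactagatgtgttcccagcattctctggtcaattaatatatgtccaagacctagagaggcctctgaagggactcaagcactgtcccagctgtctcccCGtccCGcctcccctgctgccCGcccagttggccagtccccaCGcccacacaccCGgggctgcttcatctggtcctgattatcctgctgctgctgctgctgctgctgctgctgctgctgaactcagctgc
Tns2: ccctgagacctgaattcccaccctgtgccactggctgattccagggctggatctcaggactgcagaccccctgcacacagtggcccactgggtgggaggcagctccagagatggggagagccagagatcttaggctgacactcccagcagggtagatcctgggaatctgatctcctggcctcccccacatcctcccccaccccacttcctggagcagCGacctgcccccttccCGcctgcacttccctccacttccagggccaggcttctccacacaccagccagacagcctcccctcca
Itga3: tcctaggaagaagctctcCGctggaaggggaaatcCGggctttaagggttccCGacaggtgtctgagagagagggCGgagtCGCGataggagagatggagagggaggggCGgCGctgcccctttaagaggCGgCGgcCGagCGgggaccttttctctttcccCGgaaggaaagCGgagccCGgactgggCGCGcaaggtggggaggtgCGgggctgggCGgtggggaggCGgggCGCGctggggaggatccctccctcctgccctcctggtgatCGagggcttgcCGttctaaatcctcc
Irs2: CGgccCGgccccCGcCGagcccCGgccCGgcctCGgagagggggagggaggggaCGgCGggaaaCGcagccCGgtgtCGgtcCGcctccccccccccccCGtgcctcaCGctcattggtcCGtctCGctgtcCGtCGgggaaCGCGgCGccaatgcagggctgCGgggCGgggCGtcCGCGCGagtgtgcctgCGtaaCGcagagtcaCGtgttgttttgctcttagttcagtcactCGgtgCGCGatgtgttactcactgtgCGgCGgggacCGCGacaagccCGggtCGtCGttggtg
These windows lie at chr10:32889866-32890165 (minus strand, Nkain2), chr17:88626305-88626604 (plus strand, Ston1), chr5:137611355-137611654 (minus strand, Pcolce), chr15:102102684-102102983 (plus strand, Tns2), chr11:95076665-95076964 (minus strand, Itga3) and chr8:11008880-11009179 (minus strand, Irs2). The promoters of Nkain2, Irs2 and Itga3 held 43, 41 and 24 CpGs, while those of Pcolce, Ston1 and Tns2 held 5, 2 and 2.

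Most of the 747 domains were within 1 kb of the width minimum in the WT line. The median WT width was 4.43 kb, against 5.16 kb for kept domains. In the WT line 561 of the 747 (75.1%) were 4 to 5 kb wide, against 639 of the 1460 kept domains (43.8%). A mutant peak of at least 3.5 kb overlapped 356 of the 747, and in 52 the widest mutant peak was under 2 kb. Mutant H3K4me3 covered a median of 78.7% of a domain's width (quartiles 63.3% and 87.5%), and 95.04% of a kept domain. At least 90% of the width stayed covered in 128 of the 747 (17.1%), and under 50% in 107. These values come from the lists that chose the domains and describe the set without testing it.

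The rule itself took 33.8% of broad WT domains (747 of 2207, 95% Wilson interval 31.9% to 35.8%, counting error only, as for all such intervals here). The share was lower at greater width, going from 55.3% (51.7% to 58.8%) of domains 4 to 4.5 kb wide and 32.7% at 4.5 to 5 kb to 21.0% at 5 to 6 kb, 20.3% at 6 to 8 kb and 7.95% (4.80% to 12.9%) at 8 kb and above. The same rule turned around took 15.9% of broad mutant domains (277 of 1737), of which 6 overlapped no WT peak, 164 overlapped 1 narrower WT peak and 107 several. Their median width was 4.33 kb and 223 of them were 4 to 5 kb wide. Across WT peaks of any width, 27.8% overlapped no mutant peak, against 1.22% (27) of the 2207 broad domains.

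Width also differed between the lines for WT peaks narrower than the minimum. Where 1 WT peak met 1 mutant peak, the mutant width was a median 96.5% of the WT width for WT peaks of 1 to 2 kb, 95.5% at 2 to 3 kb, 94.5% at 3 to 4 kb, 92.6% at 4 to 5 kb, 91.8% at 5 to 6 kb and 89.2% at 6 kb and above. Sorted by mutant width instead, the WT peak was wider than its mutant partner in every band by the median, at 102.1% to 104.1% of the mutant width. Bands of WT width from 4 kb up, and of mutant width under 4 kb, include narrowed domains of the set. By WT width, the bands under 4 kb lie outside the set, and there the mutant peak also tended to be narrower. Kept domains had a median WT width of 5.16 kb and a median widest mutant peak of 4.94 kb.

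**Figure D1:**
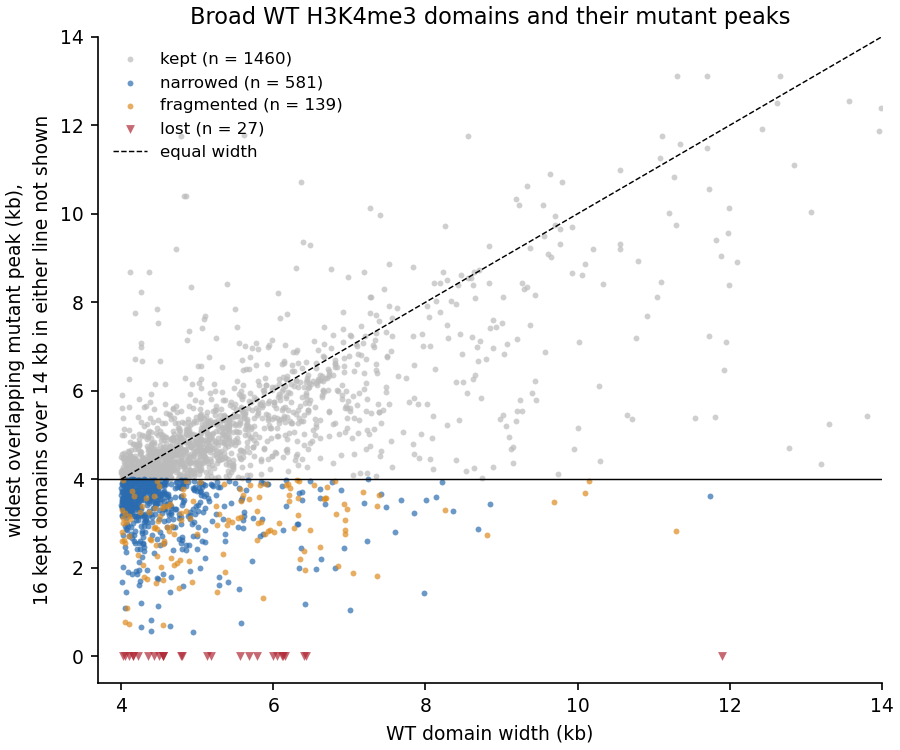
Width of each broad WT H3K4me3 domain (x axis, kb) against the widest mutant H3K4me3 peak overlapping it (y axis, kb, with 0 for none), 1 point per domain and a solid line at 4 kb. Narrowed and fragmented domains lie below the line by the rule and crowd just under it between 4 and 5 kb, while the 27 lost domains lie at 0. Of the kept domains, 16 fall outside the 14 kb axes.

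The domains at Snx7, a sorting nexin, at F3, which encodes tissue factor, and at Rnf114 were 4000, 4000 and 4001 bp wide in WT cells and 3.81, 3.43 and 3.63 kb in mutant cells. Just outside, the WT peaks at Zfp574, Rnpep and Ier5 were 3999, 3998 and 3997 bp wide and their mutant peaks 3.58, 2.60 and 3.54 kb. On the mutant side, the peaks at Ncoa2, Rbfox2 and Lnx2 were 3.999, 3.999 and 3.998 kb wide, for WT widths of 4.16, 4.30 and 4.13 kb. Membership at that edge thus separates near-identical peaks.

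The 27 lost domains lay mostly away from gene starts. They had a median WT width of 4.80 kb, and 20 of them held no protein-coding gene start within 1 kb. Of those 20, 16 lay inside a gene. The share with a gene start was 25.9% (7 of 27, 13.2% to 44.7%), against 90.2% (524 of 581, 87.5% to 92.4%) of narrowed, 82.7% (115 of 139, 75.6% to 88.1%) of fragmented and 92.7% (1353 of 1460, 91.2% to 93.9%) of kept domains. Among all WT H3K4me3 peaks of any width, 53.1% (12296 of 23154) had a gene start. The deposited scores of lost domains were lower too, with a median of 2075 and 37.04% at 3100 or above, against 97.5% of kept domains. The score 3100 recurs at the top of both H3K4me3 lists and does not show equal signal.

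The widest lost domain lay at Nkain2, which encodes a membrane protein that interacts with the Na,K-ATPase. It measured 11.9 kb in the WT line (chromosome 10, 32879702 to 32891597) and reached from 1.68 kb upstream of the gene start to 10.2 kb downstream. The domain lay wholly inside the gene, 5.58 kb from the nearest gene end, so this start is internal to Nkain2. WT H3K27ac covered 397 bp of the domain, and there was no mutant peak of H3K4me3, H3K27ac or H3K4me1. Ston1, an endocytic adaptor of the stonin family, had a lost domain of 6.13 kb (chromosome 17, 88625599 to 88631728) with 352 bp of WT H3K27ac. This domain too lay wholly inside its gene, 16.1 kb from the nearest gene end. There the mutant line had an H3K4me1 peak of 422 bp across the gene start, from -0.058 to 0.364 kb relative to it, and no H3K4me3 peak.

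The other 5 lost domains with a gene start were narrower. That at Fbxo24 and Pcolce, which encodes an enhancer of procollagen C-proteinase, was 5.17 kb wide with 2085 bp of WT H3K4me1. Dmpk, the kinase gene of myotonic dystrophy, had 4.55 kb, Tmem119 had 4.50 kb and Phyhd1 4.10 kb, with 917, 1122 and 1086 bp of WT H3K4me1 and no mutant H3K4me1. Phyhd1 had H3K27ac in both lines, 184 bp in the WT and 189 bp in the mutant line, and Dmpk only in the mutant line, 100 bp. At these 4 domains H3K4me1 was called in the WT line alone, while H3K27ac calls differed from gene to gene. H3K27ac peaks were short in both lists, with a median width of 116 bp in the WT and 107 bp in the mutant line. The H3K27ac values given for single domains, here and elsewhere, thus rest on few short calls.

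At 2 loci there were several lost domains, so the 27 fall into 22 loci when domains within 200 kb are linked. Inside Zeb2, a zinc finger repressor of the neural crest and melanocyte lineages, 3 lost domains of 4.22, 5.79 and 6.4 kb lay between 45053640 and 45090841 on chromosome 2. That interval held 6 WT and 0 mutant H3K4me3 peaks, 4 WT and 0 mutant H3K4me1 peaks, and 1 H3K27ac peak in each line. The broad domain at the start of Zeb2 itself was kept, with 24.6 kb in the WT line, a widest mutant peak of 17.9 kb and 93.3% covered. The second locus, upstream of and including the start of Mtap, which encodes methylthioadenosine phosphorylase, held 4 lost domains of 6.43, 6.05, 6.12 and 5.999 kb over 187 kb (chromosome 4, 88954898 to 89142273). The interval held 14 H3K4me3, 19 H3K27ac and 13 H3K4me1 peaks in WT cells and 0, 0 and 0 in mutant cells. Whether the mutant line retains this stretch of DNA was not tested. Outside these loci, the widest lost domain inside a gene but without a gene start measured 6.15 kb, in Stard13.

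Where a narrowed domain could be oriented by its gene, the bases no longer covered lay mostly on the gene body side. For the 298 of 581 that held 1 gene start of known strand, the WT peak reached a median of 1.13 kb upstream and 3.27 kb downstream of the start, and the mutant peak 0.958 kb and 2.38 kb. The start itself stayed under the mutant peak in 295 (99.0%). The median difference per gene, WT minus mutant, was 0.139 kb upstream and 0.716 kb downstream, and the downstream difference was the larger in 241 of the 295 (81.7%, 76.9% to 85.7%). In kept domains the medians were 0.053 and 0.139 kb, and the downstream difference was the larger in 394 of 689 (57.2%, 53.5% to 60.8%). Since more of the WT width lies downstream, the rule leaves more to lose there, so this is a description of where the bases went.

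The cover at fixed distances gives the same picture. At 2 kb downstream of the start, 96.6% of these 298 domains were under a peak in WT cells and 76.8% in mutant cells. At 3 kb downstream the shares were 66.4% and 11.4%, and at 4 kb 26.2% and 1.01%. In kept domains 82.8% were covered at 3 kb in WT cells and 78.0% in mutant cells. On the upstream side, 1 kb from the start, the narrowed domains had 63.8% and 45.6%.

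**Figure D2:**
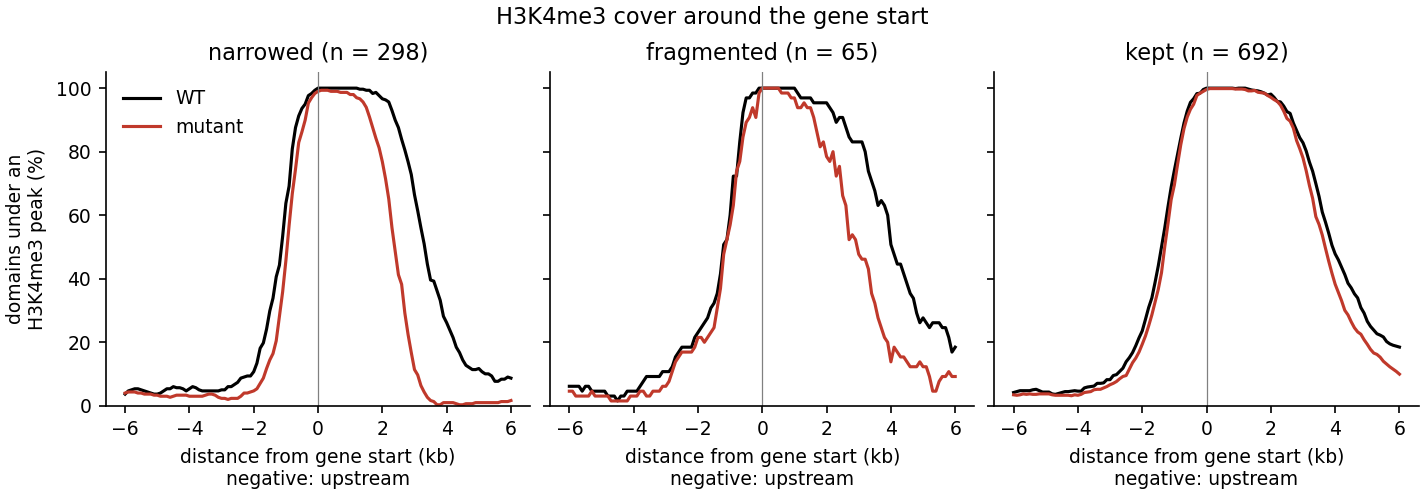
Share of domains under an H3K4me3 peak (y axis, percent) by distance from the gene start (x axis, kb, upstream negative), for narrowed (298), fragmented (65) and kept (692) domains that hold 1 gene start of known strand, WT in black and mutant in red. In the narrowed panel the lines separate most between 2 and 4 kb downstream, with 66.4% against 11.4% at 3 kb.

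By edges, irrespective of strand, 413 of the 581 mutant peaks lay inside the WT domain on both sides, and 167 had an edge beyond it. In 355 (61.1%) at least 80% of the uncovered bases were on 1 side. The median uncovered stretch was 0.787 kb on the larger side and 0.105 kb on the smaller. A mutant edge beyond the WT domain leaves no uncovered bases on that side, so those 167 counted as 1-sided by definition. The 61.1% therefore does not show that narrowing favours 1 side.

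The widest narrowed domain was that at Cxxc5, a CXXC zinc finger protein, with 11.7 kb in WT cells and 3.62 kb in mutant cells. Adgra2, an adhesion receptor of WNT7 signalling, had 8.85 and 3.43 kb, and Tns2, a focal adhesion protein of the tensin family, had 8.69 and 2.875 kb. Among the 298 genes above, the mutant peak missed the start of 3, Tns2, Sp2 and Bgn, the last named after its values were seen. The mutant peak at Tns2 (chromosome 15, 102098863 to 102101737) ended before the gene start at 102102934. The CpG-poor promoter printed for Tns2 therefore lay among the bases that were no longer covered. It belongs to the start used here, while the nearest annotated end of Tns2 lay elsewhere, 0.282 kb from an edge of the WT domain. Cover at other starts of Tns2 was not tested.

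Itga3, the alpha 3 subunit of laminin-binding integrins, kept the least of its domain among the 8 widest narrowed domains with a gene start. The WT peak was 7.98 kb (chromosome 11, 95071224 to 95079207) and the mutant peak 1.44 kb, which left 18.05% covered. What stayed lay from 0.653 kb upstream to 0.788 kb downstream of the start, around the promoter printed above, and its score was 749. The WT domain held 247 bp of H3K27ac and 2570 bp of H3K4me1, and the mutant line neither. The WT H3K4me1 lay in the flanks, outside the bases that stayed covered.

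Lasp1, an actin-binding focal adhesion protein, showed the gene body pattern, with 8.14 kb in WT cells and 3.603 kb in mutant cells. Its upstream reach was 0.752 and 0.886 kb, and its downstream reach 7.39 and 2.72 kb. At Gnai2, an inhibitory G protein alpha subunit, the peak was 8.22 and 3.94 kb wide. At Bcl9l, a beta-catenin coactivator, it was 8.01 and 3.54 kb. At Zmynd8, a chromatin reader, it was 8.36 and 3.28 kb, inside the gene and 13.4 kb from its nearest end. The mutant peaks at these 3 genes scored 3100, 3100 and 1083.

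Domains narrowed most in proportion were not always those with a gene start. Apart from Itga3, the next values were chosen after they were seen. Ptpa, an activator of protein phosphatase PP2A, had the lowest cover of the narrowed domains, with 4.94 kb in WT cells and 0.551 kb (11.2%) in mutant cells. That domain lay wholly inside the gene, with the nearest gene end 0.953 kb away, and whether it marks a promoter was not tested. H3K4me1 covered 3695 bp of it in WT cells and 1383 bp in mutant cells. At Sp2, an Sp family transcription factor, 4.39 kb inside the gene was left as 0.812 kb (18.5%). Both mutant peaks had low scores, 94.2 and 103.2, against 2023 and 1569.8 for the WT domains. After Ptpa, the lowest cover was in domains without a gene start, inside Tspan14 (13.0%) and inside Epha2 (13.5%). The domain at the start of Epha2 itself was kept.

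Adjacent to each other on chromosome 2, the domains at Dlx1 and near Dlx2, a pair of homeobox genes, were both narrowed. The first went from 7.67 to 3.54 kb and the second, whose nearest gene end lay 0.576 kb away on Dlx2, from 7.01 to 1.04 kb. WT H3K27ac covered 308 and 111 bp in them and mutant H3K27ac 0 and 0 bp. The broad domain at the start of Dlx2 itself was kept, with 4.68 kb in the WT line, a widest mutant peak of 4.60 kb and 98.3% covered. The 3 other wide narrowed domains had no gene start, with 7.59 and 2.81 kb at 30715910 to 30723503 on the same chromosome, 6.82 and 1.99 kb inside Mbnl2, a splicing regulator, and 6.68 and 3.43 kb inside Cyb5r3, a cytochrome b5 reductase.

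Fragmented domains were the widest of the 3 classes, with a median of 5.04 kb against 4.33 kb for narrowed ones, and the most covered, at a median of 84.1%. The mutant line had 2 peaks in 118 of the 139, 3 in 17, 4 in 3 and 5 in 1. The 165 gaps between neighbouring mutant peaks were short, with a median of 115 bp (quartiles 42 and 362 bp, range 1 to 3453 bp), and 132 were under 500 bp. Measured from the first to the last mutant edge, 103 of the 139 still spanned at least 4 kb. A gap held WT H3K27ac in 8 cases, WT H3K4me1 in 17 and a gene start in 3. Most breaks within fragmented domains were thus short, while the presence of several mutant peaks is how the class was defined.

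The widest fragmented domain lay at Arhgef17, a guanine nucleotide exchange factor, with 11.3 kb in WT cells and 3 mutant peaks covering 41.1%. At Irs2, the adaptor that carries insulin and IGF1 receptor signals, the WT domain was 10.2 kb (chromosome 8, 11000234 to 11010387) and 61.1% was covered. The mutant peaks there were 3.95 kb over the gene start and 2.25 kb within the gene. The first began within 0.006 kb of the upstream WT edge. Between the mutant peaks, from 2.5 to 4.22 kb downstream, lay a WT H3K4me1 peak from 3.37 to 3.80 kb.

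Adam19, a membrane metalloprotease of the ADAM family, was the domain with 5 mutant peaks. They measured 3.701, 1.79, 1.015, 0.896 and 0.664 kb and covered 79.9% of 10.1 kb, with the widest over the start. Their scores declined with distance from the start, from 3100 through 255, 183 and 97.9 to 53.4. Stk40, a kinase-like protein, had 3.495 and 1.88 kb left of 9.69 kb, and Sptan1, the alpha chain of non-erythroid spectrin, 0.860 and 2.745 kb of 8.81 kb. At Slit2, an axon guidance ligand, 1.82 and 0.984 kb were left of 7.365 kb. Slit2 and Lfng, a Notch glycosyltransferase, were the 2 fragmented domains that overlapped a region listed with higher H3K27me3 in the mutant line, of 151 and 173 bp.

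At 2 wide fragmented domains nearly all bases stayed covered. Hnrnpl, a splicing regulator, kept 91.9% of 7.18 kb in peaks of 2.89 and 3.704 kb, and the domain at Metrn and Antkmt 90.6% of 7.39 kb. Without a gene start, the domain inside Sash1 (8.25 kb) kept 70.3%, that near Irf2bpl (7.36 kb) 85.8%, that near Has1 (6.97 kb) 58.6% and that near Tlcd2 (6.94 kb) 78.3%. The fragmented class therefore ranged from a single short break to a loss of most of the domain.

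H3K27ac, which the rule did not use, was called in fewer of the 747 domains in the mutant line than in the WT line, and in fewer of them than of kept domains. In the WT line 68.4% (511 of 747) overlapped an H3K27ac peak, against 76.4% (1116 of 1460) of kept domains, a difference of -8.03 percentage points (95% Newcombe interval -12.05 to -4.10). In the mutant line the shares were 46.7% (349) and 63.4% (926), a difference of -16.7 points (-21.0 to -12.3). Kept domains were wider, so the comparison was repeated among domains 4 to 5 kb wide in the WT line, where the differences were -7.58 (-12.7 to -2.45) and -9.26 points (-14.8 to -3.604). The mutant H3K27ac list was the shorter, 18751 peaks against 26415, and H3K27ac was called in 36.5% and 25.8% of all WT H3K4me3 peaks by the WT and the mutant list.

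By change of call, 33.9% (253 of 747) had H3K27ac in the WT line alone, beside 20.3% of all WT H3K4me3 peaks and 25.3% (369) of kept domains. H3K27ac in the mutant line alone was found in 12.2% (91), beside 9.54% of all WT peaks and 12.3% (179) of kept domains. Among the 511 with H3K27ac in the WT line, 50.5% (46.2% to 54.8%) also had it in the mutant line, against 66.9% (64.1% to 69.6%) of the 1116 kept domains. Both gaps were smaller among domains 4 to 5 kb wide. There, H3K27ac in the WT line alone was found in 31.4% (27.7% to 35.3%) of the set and 29.7% (26.3% to 33.4%) of kept domains, and the shares that also had it in the mutant line were 53.4% (48.4% to 58.4%) and 60.3% (55.9% to 64.6%), so the intervals overlapped in both. The mutant share was lowest in lost domains, 18.5% (5 of 27, 8.18% to 36.7%), of which 70.4% (19) had H3K27ac in the WT line. The 27 include the 4 of the Mtap locus, where the mutant line had no peak of H3K27ac or H3K4me1. For neither mark was the share computed without that locus. In narrowed domains the mutant H3K27ac share was 48.2% and in fragmented ones 46.0%, for WT shares of 69.5% and 63.3%.

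H3K4me1 differed from kept domains in opposite directions in the 2 lines. In the WT line 32.3% (241 of 747) overlapped an H3K4me1 peak, against 25% (365) of kept domains, a difference of 7.26 points (3.29 to 11.3). In the mutant line 23.0% (172) did, against 29.8% (435), a difference of -6.77 points (-10.5 to -2.87). Among domains 4 to 5 kb wide the differences were 9.06 (4.45 to 13.7) and -4.07 points (-8.76 to 0.685), so the interval of the mutant difference then held 0. The mutant H3K4me1 list held 3649 peaks and the WT list 17373. Of all WT H3K4me3 peaks, 15.7% overlapped H3K4me1 by the WT list and 9.28% by the mutant list, both below the shares in the set.

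H3K4me1 in the WT line alone was found in 20.9% (156) of the 747, beside 12.3% of all WT H3K4me3 peaks and 12.4% (181) of kept domains. H3K4me1 in the mutant line alone was found in 11.6% (87), beside 5.86% of all WT peaks and 17.2% (251) of kept domains. Among domains 4 to 5 kb wide the WT-alone shares were 16.8% (13.9% to 20.1%) in the set and 9.23% (7.23% to 11.7%) in kept domains, and the mutant-alone shares 11.8% (9.36% to 14.7%) and 17.4% (14.6% to 20.5%). Lost domains had the highest WT share, 51.9% (14 of 27, 34.0% to 69.3%), and a mutant share of 11.1% (3). The shares were 31.2% and 22.2% in narrowed domains and 33.1% and 28.8% in fragmented ones.

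**Figure D3:**
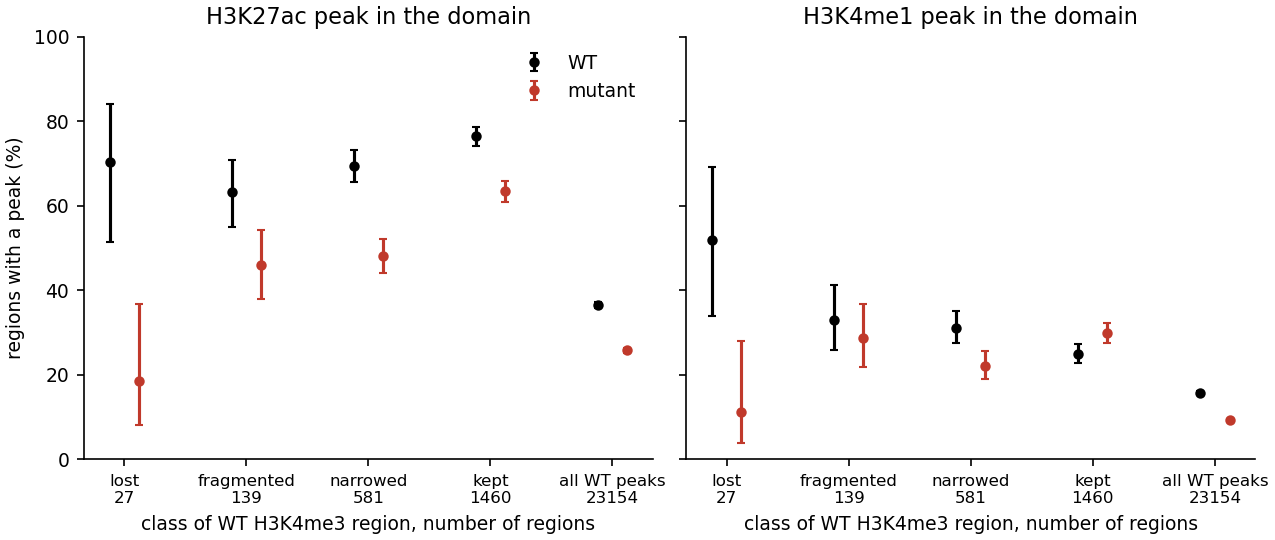
Share of WT H3K4me3 regions overlapping an H3K27ac peak (left) or an H3K4me1 peak (right) by class (x axis, with the number of regions), WT list in black and mutant list in red, bars showing 95% Wilson intervals for counting error. The mutant H3K27ac share is 18.5% in lost, 46.0% in fragmented, 48.2% in narrowed and 63.4% in kept domains.

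Within the domains, WT H3K4me1 lay mainly on the bases that the mutant H3K4me3 did not cover. Over the 747, mutant H3K4me3 covered 2516 of 3591 kb (70.1%) and left 1075 kb uncovered. WT H3K4me1 peaks took 130 bp per kb of the uncovered bases and 21.3 bp per kb of the covered bases. H3K27ac was distributed the other way, with 15.4 bp per kb of uncovered and 36.96 bp per kb of covered bases in the WT line, and 4.55 and 22.6 bp per kb in the mutant line. In the mutant line H3K4me1 took 25.7 bp per kb of uncovered and 28.1 bp per kb of covered bases. Within the set, mutant H3K4me1 was thus below WT H3K4me1 on the uncovered bases and above it on the covered bases. Over all chromosomes the mutant H3K4me1 list covered 1.51 Mb and the WT list 9.44 Mb, so less mutant H3K4me1 was also seen outside these domains.

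This pattern was not particular to the 747. In kept domains, WT H3K4me1 took 129 bp per kb of uncovered and 20.04 bp per kb of covered bases, and mutant H3K4me1 32.1 and 29.4 bp per kb. The kept domains had 749.7 kb uncovered of 8505 kb.

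**Figure D4:**
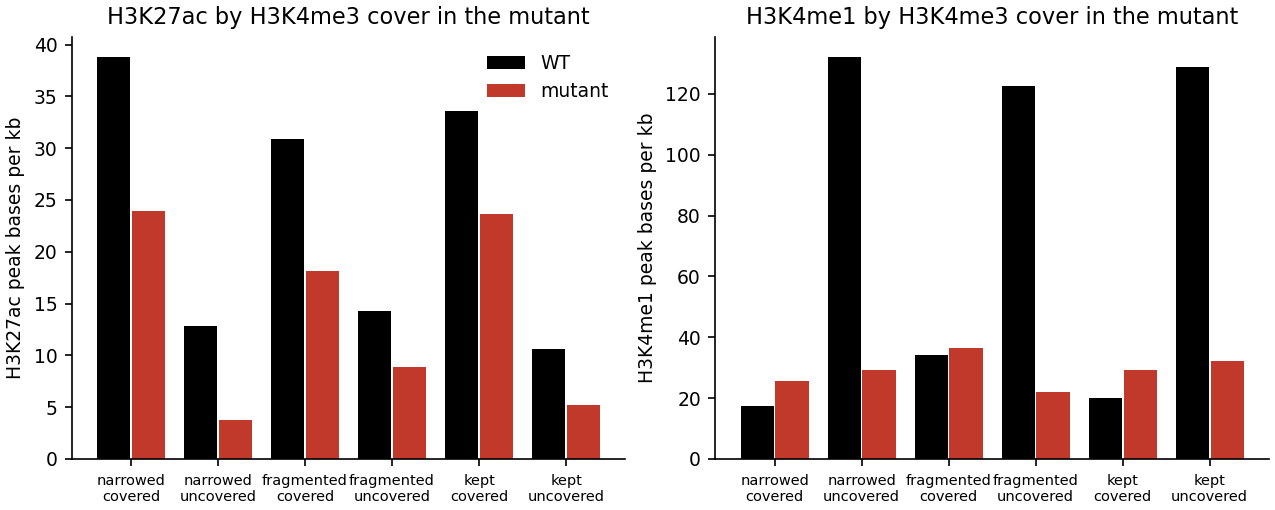
Bases under H3K27ac peaks (left) and H3K4me1 peaks (right) per kb of WT domain, for the bases covered and not covered by mutant H3K4me3 in narrowed, fragmented and kept domains, WT list in black and mutant list in red. WT H3K4me1 takes 132, 123 and 129 bp per kb of the uncovered bases in the 3 classes, and 17.3, 34.2 and 20.04 bp per kb of the covered bases.

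H3K27me3 was rare in all classes. A WT H3K27me3 peak overlapped 5 of the 747 (0.67%, 0.29% to 1.56%) and 8 of the kept domains, against 5.46% of all WT H3K4me3 peaks. The widest overlaps were 5449 bp at Fgf9, a fibroblast growth factor, and 2176 bp at Sall1, a zinc finger developmental regulator. The mutant H3K27me3 list was called against the WT H3K27me3 library, per its name, and so would hold regions higher in the mutant line. It overlapped 3 of the 747 (0.40%), at Sirpa, Slit2 and Lfng, and 2 kept domains, beside 17 of all 23154 WT H3K4me3 peaks. That list is short, with 1300 regions in all, and the counts allow no comparison between the classes.

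In total, 752 distinct protein-coding genes had a start in the set, 30.9% of the 2436 genes with a start in any broad WT domain. Several genes had a start in 13.7% (102) of the 747 domains and in 22.8% (333) of the 1460 kept domains. Of 414 genes in 17 pathway, lineage and marker lists, 127 had a start in a broad domain and 14 of these (11.0%) in the set. The broad domains with a listed gene were wider, with a median of 5.93 kb over 126 domains against 4.85 kb over the 1999 broad domains with a gene start. At a WT width of 4 to 5 kb, 11 of 40 (27.5%) of those with a listed gene belonged to the set, against 495 of 1107 (44.7%) of those with any gene.

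Developmental regulators and genes of matrix and fibroblasts were present with few members. Dlx1, Tbx18 and Meis1, all transcription factors, were 3 of 12 broadly marked developmental regulators. At Tbx18 the width was 4.56 kb in WT cells and 3.505 kb in mutant cells, and at Meis1 4.16 and 3.62 kb. S100a4, a calcium-binding protein of motile cells, and Timp1, an inhibitor of metalloproteases, were 2 of 9 matrix and fibroblast genes, with 5.07 and 3.89 kb and with 4.71 and 3.601 kb. S100a4 was unlike most in losing its cover upstream, by 1.11 kb, and 0.077 kb downstream.

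Among signalling genes the domains were close to the minimum apart from Irs2, 1 of 8 broadly marked genes of IGF and insulin signalling. Map2k1, which encodes the kinase MEK1, had 4.53 kb in WT cells and 3.235 kb in mutant cells, and Spred2, an inhibitor of MAPK signalling, 4.05 and 3.84 kb. They were 2 of 17 MAPK genes. Tgfb3, a TGF-beta ligand, had 4.07 and 3.67 kb and was 1 of 14 genes of its pathway, and Fosb, an AP-1 subunit, had 4.18 and 3.66 kb and was 1 of 12. Ccnd3, a D-type cyclin, had 4.53 and 3.64 kb, and Lats2, a Hippo pathway kinase, 4.49 and 3.67 kb, as 2 of 16 cell cycle and tumour suppressor genes.

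Of the H3K4 and H3K27 enzymes and their partners, 2 of 11 were in the set. Rbbp5, a core subunit of the H3K4 methyltransferase complexes, had a domain of 4.57 kb in WT cells and 3.32 kb in mutant cells. Ep300, an acetyltransferase that places H3K27ac, was fragmented, with 4.81 kb in WT cells and 99.4% of it under mutant peaks of up to 3.78 kb. None of the 19 broadly marked genes of the undifferentiated and neural crest state, 8 housekeeping genes, 3 Wnt pathway genes, 2 melanocyte genes or 2 antigen presentation genes was in the set. No Hox gene and no endothelial, immune or keratinocyte marker had a broad domain. With 2 to 19 genes per list these counts allow no ranking of the lists.

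The promoters in the set had CpG counts close to those of kept domains, apart from the lost class. A RefSeq promoter was found for 529 gene starts of the set and 1129 of kept domains. The median number of CpGs in 300 bases was 26 (quartiles 19 and 33) in the set and 27 (19 and 35) in kept domains, against 21 at WT peaks under 4 kb and 13 over all 21263 protein-coding promoters. The GC content was 66.0% and 65.7%, and the observed to expected CpG ratio 0.824 and 0.855. The 6 promoters of lost domains had a median of 3.5 CpGs, with 43 at Nkain2 and 14 at Mtap, and 5 or fewer at Pcolce, Ston1, Dmpk and Phyhd1.

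Short motifs were searched on both strands of the same 300 bases. The GC box GGGCGG was found in 77.9% of the promoters in the set and 76.1% of those of kept domains, against 46.2% of all promoters. The ETS motif CCGGAA was in 26.8% and 27.8% (18.7% of all), CCAAT in 36.1% and 35.4% (38.2%), the E-box CACGTG in 7.75% and 9.48% (7.84%) and TATAAA in 6.43% and 6.02% (12.6%). The AP-1 motif TGACTCA was in 3.403% of the set, 2.83% of kept and 4.66% of all promoters. Within the set it was in 10 of the 94 promoters of fragmented domains (10.6%, 5.88% to 18.5%) and 8 of the 429 of narrowed ones (1.86%, 0.948% to 3.64%). Adam19 and Antkmt were among the fragmented ones with the motif. No motif contains another, matches of different motifs may share bases, and a match describes the letters only.

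The set was spread over the autosomes and X. Its share of the broad domains ranged from 20% on X (6 of 30) and 23.6% on chromosome 19 (21 of 89) to 46.1% on chromosome 8 (53 of 115) and 46.9% on chromosome 18 (30 of 64). The Wilson intervals of chromosomes 8 (37.3% to 55.2%) and 18 (35.2% to 58.9%) lay above the share of 33.8% over all chromosomes, and that of chromosome 19 (16.0% to 33.4%) below it. The number of copies of each chromosome in these lines was not tested. Of the lost domains, 5 were on chromosome 2 and 4 each on chromosomes 4 and 5.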

How the data were processed

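Peak lists of 4 marks, 1 library per line and mark, were used as deposited, and no libraries were pooled. The submitters' processing notes name the mm10 build, MACS2, FastQC and MultiQC. Neither aligner nor read filters nor sequencing depth is given in the sources used here, so the precision per peak is unknown. The H3K4me3 lists of the authors hold 1 score per peak, whose name and range fit the −10 log10 p of an early MACS layout, with a smallest value of 50 in both. The other lists hold the authors' fold enrichment (a ratio) over control with −log10 p and −log10 q values, as deposited. For mutant H3K27me3 the control was the WT H3K27me3 library, judging by the list's name.

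Overlap meant at least 1 bp. Peaks outside the 19 autosomes, X and Y were left out (1 to 10 in the lists affected). Gene starts came from the RefSeq promoter table for 17492 of 21900 protein-coding genes, and for 4395 others either gene end served. A domain held a start within 1 kb. Starts of the promoter table may be internal to a gene. The width, 3 classes, covered bases, marks and promoter letters were computed with Python 3.11.15, numpy 2.4.6, pandas 2.3.3 and scipy 1.17.1. Scripts were tested on simulated lists. Wilson and Newcombe intervals (95%) cover counting error only, and regions are not replicates. The domains and gene lists were chosen with earlier results of these data known. Named were, per class, the 8 widest domains with a gene start and 4 without, the 3 nearest the width minimum on each side, the 3 widest mutant counterparts, and listed genes. Ptpa, Sp2, Tspan14, Epha2, Bgn, Fgf9, Sall1, Sirpa and Lfng were named after their values were seen. Alternatives changed the width minimum, mutant width, joining of peaks, start distance, mark overlap and chromosomes.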

Additional observations from a re-analysis of the deposited data

How the results depend on the processing

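Over 13 alternative settings, 162 of 194 values stayed within their range, 32 moved and 0 reversed. For counts that range was a factor of 1.5 either way, so sizable shifts count as within it. With 3000 bp in both lists the set held 1171 domains (68 lost, 960 narrowed), with WT H3K27ac in 61.4%, mutant H3K27ac in 39.5%, WT H3K4me1 in 24.1% and a gene start in 81.6%. With 5000 bp it held 410 (13 lost, 274 narrowed), with 72.4%, 50.7% and 42.2% for the same 3 marks. Joining peaks within 1000 bp gave a set of 947 domains (56 lost, 828 narrowed, 63 fragmented), with WT H3K4me1 in 36.6% and a gene start in 83.2%. The cause of these shifts was not tested. With the mutant width matched by number of peaks, the set held 544 domains (398 narrowed), and 83.6% had a gene start. Among domains 4000 to 5000 bp wide WT H3K4me1 was in 25.5%, and with marks counted within 1 kb in 37.6%. With the more significant 50% of each mark's list, WT H3K27ac was in 43.1%, mutant H3K27ac in 29.5% and WT H3K4me1 in 18.7%. In 11 of 11 settings the set minus kept domains was below 0 for WT H3K27ac (-10.6 to -6.79 points), mutant H3K27ac (-20.6 to -9.26), mutant H3K4me1 (-7.83 to -0.985) and gene starts (-11.9 to -0.0731), and above 0 for WT H3K4me1 (5.11 to 11.2). The interval held 0 at 5000 bp for gene starts (-4.22 to 3.84) and mutant H3K4me1 (-6.83 to 4.97), and at 4000 to 5000 bp for mutant H3K4me1 (-8.76 to 0.685). For WT H3K27me3 the sign held in 8 of 11. No paired analysis was possible because each line had 1 library per mark and no replicate numbers. Sequencing depth is unknown, so a peak missing from a list may have fallen below that list's threshold.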
